A study of Mus musculus with 12 samples.

Results

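The response of IEC4.1 cells to siRNAs against the lncRNA Nostrill under IFN-γ was taken as 1 comparison, of 3 siR_Nostrill + IFN-γ libraries with 3 siR_Ctrl + IFN-γ libraries, which are 6 of the 12 RNA-seq libraries of the series. All genes were included, and the libraries were chosen by their labels and not by any measured value. IEC4.1 is a line derived from intestinal epithelium of newborn mice. The siR_Ctrl + IFN-γ cells are labelled wild type and had received a scrambled siRNA, and the siR_Nostrill + IFN-γ cells are labelled as a Nostrill knockdown (spelled Nostril there) and had received a pool of 3 siRNAs against Nostrill. Both groups had been given IFN-γ (1 ng/ml for 4 h, as the study states it, while the labels give 24 h for every library). The other 6 libraries, siR_Ctrl and siR_Nostrill without IFN-γ, entered the same model and were compared only where the effect of the siRNA pool without IFN-γ is given beside the effect with it. These libraries come from 1 line with 1 scrambled control, and the siRNAs of the pool were not given separately, so that the effect of a single siRNA cannot be told apart from that of the pool. Nostrill itself (2500002B13Rik) is not among the 15002 genes in the tables used here, so that its level could not serve as a check on the knockdown.

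IFN-γ binds a receptor made of the Ifngr1 and Ifngr2 chains. The receptor signals through the kinases Jak1 and Jak2 to the promoters of interferon-stimulated genes, among them those of the guanylate-binding proteins (GBPs), immunity-related GTPases (IRGs), antigen presentation genes and chemokines. A long noncoding RNA such as Nostrill can act in the nucleus on the promoters of other genes, and the study asked whether Nostrill shapes the transcription that follows IFN-γ. An siRNA acts through its guide strand, which is loaded into an Argonaute protein and cuts a fully matching RNA. A guide can also lower other mRNAs by pairing of its seed, bases 2 to 8, with the 3′ UTR, the way a microRNA does.

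The guide strands of the pool are printed 5′ to 3′ because the seed matches described further on refer to them, and the capitals mark the seed.

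Nostrill-1 guide: aUUAAUGCuucuucccagg

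Nostrill-2 guide: aUUUGUGUguuccuggugg

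Nostrill-3 guide: aUUAGAACgacuuauaggc

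Each is the reverse complement of the sense strand that the study lists. The guide of Nostrill-1 was fully complementary to bases 121 to 139 of the 2618-nt Nostrill transcript of GENCODE (exon 1, GRCm38, chr8:57488174-57488192, plus strand), and that of Nostrill-2 to bases 307 to 325 (exon 3, chr8:57506566-57506584). The guide of Nostrill-3 had no full match in either annotated Nostrill transcript, the second of which is 298 nt long and holds the Nostrill-2 site only. The 3 seeds differ from each other, so that each has its own set of seed matches.

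The libraries held 17824306 to 19093204 gene-assigned reads each. Of 16 markers of intestinal epithelium 9 are listed in the tables and none exceeded 1 FPKM (fragments per kilobase of transcript, scaled to library size) in every library. Krt8 reached 0.28 FPKM at most, Krt18 0.1, Vil1 0.07 and Cdx2 0.03, and Krt19 ranged from 0.91 to 2.76 FPKM. Of 9 fibroblast markers 7 exceeded 1 FPKM in every library, with Col1a1 from 176 to 315 FPKM and Acta2 among them. The summed FPKM of the fibroblast markers ranged from 507 to 718 in siR_Ctrl + IFN-γ cells and from 568 to 649 in siR_Nostrill + IFN-γ cells, so that these groups overlapped, and the summed epithelial markers ranged from 1.99 to 2.69 and from 1.32 to 1.86 FPKM, which did not overlap. Immune markers summed to 16 to 19.4 and 18.8 to 21.5 FPKM, mostly from Cd14, and endothelial markers to 0.19 FPKM at most. The part of these levels in the results was not tested. The cells are therefore called IEC4.1 cells here and are given no cell type. In bulk RNA, fewer cells of a type and less RNA per cell cannot be told apart.

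The libraries differed from each other along gene length. The deviation of a library from the mean of all libraries correlated with effective gene length across 11900 genes with a Spearman coefficient of 0.11, -0.67 and 0.60 in siR_Ctrl + IFN-γ replicates 1, 2 and 3, and of 0.45, 0.31 and -0.23 in siR_Nostrill + IFN-γ replicates 1, 2 and 3. These coefficients are descriptions across genes, which share their libraries. siR_Ctrl + IFN-γ replicate 2 thus had relatively more reads on short genes than replicate 3 of the same group. Between the groups, the median log2 difference rose from -0.12 to 0.07 between the shortest and the longest of 5 equal bins of genes (median lengths 990 and 6048 nt). Short genes were thus on the whole lower and long genes higher in siR_Nostrill + IFN-γ libraries. Between siR_Nostrill and siR_Ctrl libraries without IFN-γ the trend ran the other way, from 0.25 to -0.28 in the same bins. Counts over all genes and the genes with the largest changes are given without correction and after the length trend of each library had been removed. List members are given with the trend removed unless stated. The removal brought the medians of all bins with IFN-γ to between -0.01 and 0.00. The median SD of log2 CPM (counts scaled to library size) among replicates fell from 0.183 to 0.111 in siR_Ctrl + IFN-γ cells and from 0.106 to 0.0823 in siR_Nostrill + IFN-γ cells. A trend along GC content was less affected, with a coefficient of -0.22 before and -0.17 after removal. Without IFN-γ this coefficient was 0.33 before and 0.25 after. The part of the GC trend in the results is given by an alternative in which both trends were removed.

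**Figure D1:**
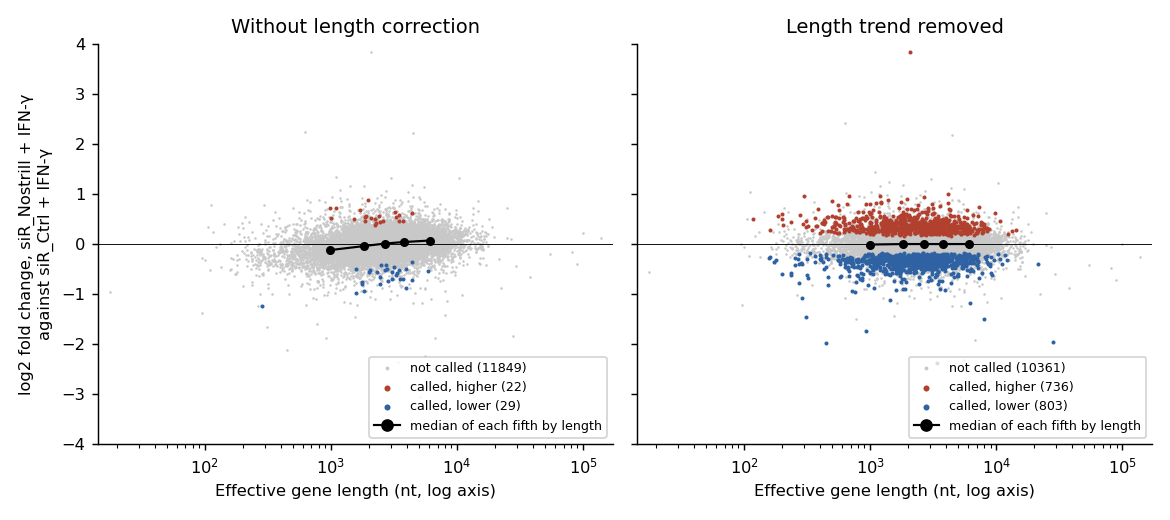
Log2 difference of siR_Nostrill + IFN-γ from siR_Ctrl + IFN-γ libraries (vertical axis) against effective gene length in nt (horizontal, log axis) for 11900 genes, without (left) and with (right) removal of the length trend; red and blue points are genes called higher and lower, and black points are medians of 5 equal bins of genes by length. The medians climb from -0.12 to 0.07 on the left and are flat on the right, where 1539 genes are called in place of 51, and 2 genes beyond a log2 difference of 4, neither of them called, lie outside each panel.

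Without correction, 51 of 11900 genes (0.429%) passed an adjusted p of 0.05, 22 of them higher and 29 lower after siR_Nostrill, while 1730 genes had an unadjusted p under 0.05. A fit of the 6 compared libraries alone called 0 genes (1563 at an unadjusted p under 0.05), and DESeq2 on all 12 called 596. Removal of the length trend gave 1539 genes (12.9%), 736 higher (6.18%) and 803 lower (6.75%). All 51 genes called without correction were also called with it. None of the 51 had overlapping groups of 3 libraries on either scale, where 3923 of the 11900 genes (33.0%) had no overlap in length-adjusted CPM (CPM after removal of the length trend). Most differences were small: 1412 of the 1539 genes (91.7%) changed by under 1.5-fold, the median absolute log2 difference was 0.34 and the smallest 0.17. Groups did not overlap in 1526 of the 1539.

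The count depended on single libraries. Without correction it was 1, 4 and 17 without siR_Ctrl + IFN-γ replicate 1, 2 or 3, and 0, 1 and 0 without siR_Nostrill + IFN-γ replicate 1, 2 or 3. It was 72, 18 and 14 without siR_Ctrl replicate 1, 2 or 3, and 44, 18 and 23 without siR_Nostrill replicate 1, 2 or 3, which enter through the shared estimate of the spread. After removal of the trend it fell to 1002 and 812 without siR_Ctrl + IFN-γ replicate 1 or 2, and to 661 and 623 without siR_Nostrill + IFN-γ replicate 1 or 2. Each of the other 8 libraries moved it by less than 1.5 times.

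Among genes called in both fits, the 12 with the largest rise were Ei24, Hspb6, Ctxn1, Mmachc, Selenon, Npcd, Actr2, Zfp961, Cln6, Ifngr2, Ccng1 and Tnfsf9. Ei24, a p53-induced gene whose product sits in the endoplasmic reticulum and takes part in autophagy, was at 41.4, 40.3 and 36.3 CPM in siR_Ctrl + IFN-γ and at 74.2, 70.7 and 72.3 CPM in siR_Nostrill + IFN-γ libraries. Its log2 difference was 0.88 ± 0.09 (SE, adjusted p = 0.0059) and changed little, to 0.90 ± 0.07, with the length trend removed. Ccng1, another p53 target that encodes cyclin G1, stood at 43.1, 38.7 and 45.2 CPM against 60.9, 61.6 and 62.3 CPM, a log2 difference of 0.54 (adjusted p = 0.023). Both genes were thus higher in all 3 siRNA-treated libraries than in any control library, which the rule for named genes required. Ifngr2, the signalling chain of the IFN-γ receptor, was at 63.7, 68.9 and 61.3 CPM in control cells and at 93.3, 97.3 and 91.7 CPM after siR_Nostrill (log2 difference 0.54, adjusted p = 0.037). Tnfsf9, the ligand of the co-stimulatory receptor 4-1BB, went from 15.3, 15.6 and 16.9 to 22.7, 22.1 and 23.9 CPM (0.52, adjusted p = 0.047). The other members of this group do unrelated work: Hspb6 is a small heat shock protein, Mmachc handles vitamin B12, Selenon and Cln6 are proteins of the endoplasmic reticulum, and Actr2 is a subunit of the Arp2/3 complex that branches actin. Their log2 differences lay between 0.57 for Cln6 and 0.73 for Hspb6. Hspb6, Mmachc and Npcd overlap other genes in the annotation (Lin37, Ccdc163, and Nptxr with Cbx6), and the sources used here do not say how reads of overlapping genes were divided.

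The 12 genes with the largest fall were Gm12666, Mns1, Mlycd, Wwc1, Apol10b, Fgf7, Atg3, Safb, Uaca, Zrsr2, Arvcf and Syt13. Atg3, the enzyme that joins LC3 to phosphatidylethanolamine in autophagosome formation, was at 58.7, 65.7 and 49.6 CPM in control cells and at 33.6, 32.7 and 37.1 CPM after siR_Nostrill (log2 difference -0.75 ± 0.13, adjusted p = 0.039, and -0.71 ± 0.08 with the length trend removed). Wwc1, the Hippo pathway scaffold also known as Kibra, fell from 33.2, 39.7 and 34.9 to 17.7, 19.7 and 21.4 CPM (-0.87, adjusted p = 0.014). Fgf7, a growth factor that acts on epithelial cells, was at 48.3, 36.9 and 43.7 against 26.9, 23.8 and 23.8 CPM (-0.79, adjusted p = 0.023). In all of these the highest siRNA-treated library lay below the lowest control library, as the rule for named genes required. Apol10b, of the apolipoprotein L family, was at 59.2, 62.3 and 53 CPM against 32.5, 34.4 and 33.2 (-0.80, adjusted p = 0.014), and Zrsr2, a splicing factor of the minor spliceosome, was at 82.3, 87.6 and 77.0 against 51.7, 50.7 and 49.6 CPM (-0.70, adjusted p = 0.014). Safb, a nuclear matrix protein that binds RNA, was the most abundant of the group, at 253, 295 and 235 CPM against 151, 159 and 162 (-0.73, adjusted p = 0.028), and its paralogue Safb2 fell by 0.57 on the log2 scale (adjusted p = 0.037). Mlycd, malonyl-CoA decarboxylase, had low counts, at 5.69, 6.26 and 5.30 CPM against 3.11, 2.69 and 3.17. Gm12666 is annotated as a pseudogene, and near-identical copies could share its reads. Mns1, Fgf7 and Zrsr2 overlap Tex9, Fam227b and Ap1s2.

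Every sign of these 24 genes was kept when a library was left out. In the fit without correction no call held without siR_Nostrill + IFN-γ replicate 1 or 3, 23 of the 24 were lost without its replicate 2, and 23, 21 and 12 without siR_Ctrl + IFN-γ replicate 1, 2 or 3. Of the libraries without IFN-γ, siR_Ctrl replicates 2 and 3 cost 11 and 15 calls and siR_Nostrill replicates 1, 2 and 3 cost 3, 11 and 8. In the fit with the length trend removed 22 of the 24 were called whichever library was left out, Tnfsf9 was lost without any of 5 of the libraries given IFN-γ, and Gm12666 without siR_Nostrill + IFN-γ replicate 3. Without IFN-γ, 408 of the 11900 genes (3.43%) were called with the length trend removed, among them 27 of the 51, and 47 of the 51 had the same sign there. Of genes beyond the 24, named after their values were seen, Gsr (glutathione reductase) fell by 0.66 with IFN-γ and by 0.67 without on the log2 scale, and Kmt5a (a histone H4 methyltransferase) by 0.43 and 0.54, each called in both states.

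**Figure D2:**
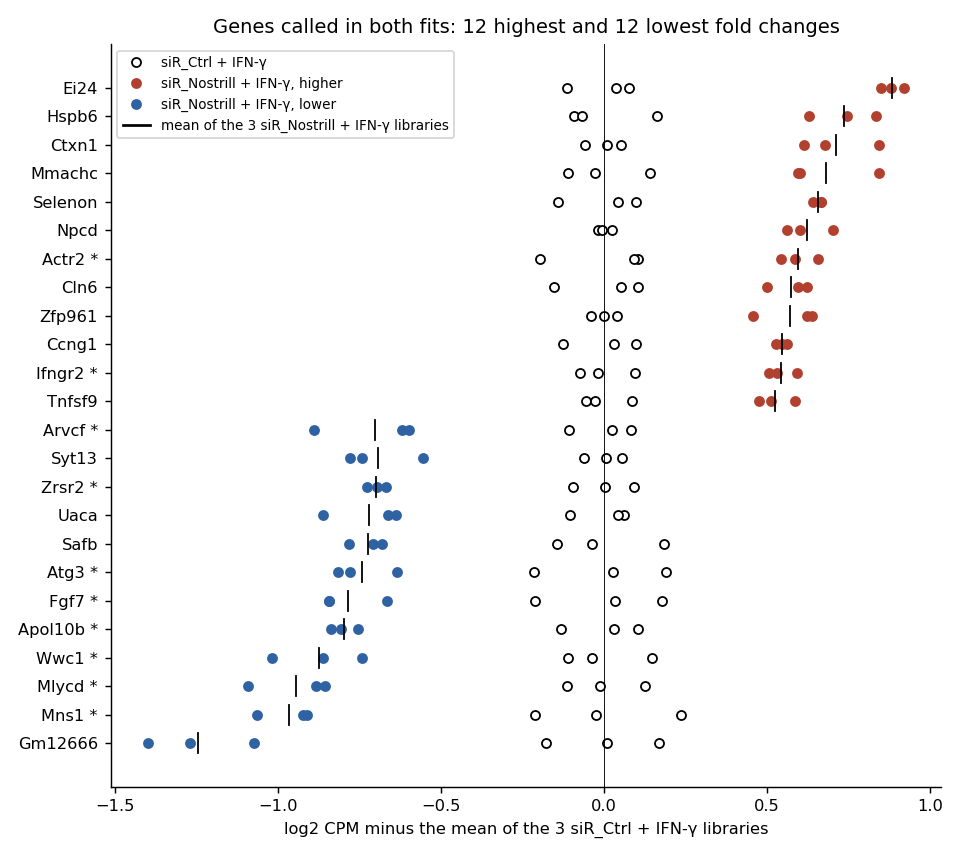
Log2 CPM of each library minus the mean of the 3 siR_Ctrl + IFN-γ libraries (horizontal axis) for the 24 named genes called in both fits; open points are siR_Ctrl + IFN-γ libraries, filled points siR_Nostrill + IFN-γ libraries, black bars their mean, and a star marks a 3′ UTR with a seed match of a guide. Genes were named only if their groups did not overlap, so that none overlaps here. The fitted log2 differences run from 0.88 for Ei24 to -1.24 for Gm12666, and stars stand beside 8 lower and 2 higher genes.

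Seed matches of the pool were then counted in the 3′ UTR of the longest coding transcript of each gene, since the falling genes could be set beside the guides printed above. Matches were counted on the mRNA strand only. A 7-base match to a guide seed was found in 3225 of 11619 genes with a 3′ UTR (27.8%). Of the 28 genes called lower in both fits that have a 3′ UTR, 22 held such a match, as did 3 of the 22 called higher. After removal of the length trend, 7.72% of genes with a match were called lower and 4.0% higher, against 6.5% lower and 7.11% higher of the genes without one. These are counts over genes with no test, and a match is not a shown site of action.

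The difference was widest for Nostrill-1. Its match GCAUUAA was present in 999 genes, of which 116 (11.6%) were called lower and 26 (2.6%) higher, while of the 10620 genes without it 6.39% were lower and 6.59% higher. Where the match was followed by an A (462 genes), 17.3% were lower and 1.73% higher, and of the genes called in both fits 10 were lower and 0 higher. The libraries without IFN-γ share no sample with this comparison but entered the same fit. In them 12.6% of the 462 genes were lower and 0.216% higher, beside 1.42% and 1.67% of genes without the match. The median log2 difference of the 462 genes was -0.099 with IFN-γ, -0.117 with the GC trend also removed and -0.112 without IFN-γ, beside 0.000 with IFN-γ for the genes without the match. For Nostrill-2 (ACACAAA, 1869 genes) 7.12% were lower with a match and 6.79% without, and for Nostrill-3 (GUUCUAA, 1126 genes) 6.31% and 6.9%, with fewer genes called higher among those with a match in both cases (3.64% against 6.75%, and 4.71% against 6.41%). Where these matches were followed by an A, 9.82% against 6.66% of genes were lower for Nostrill-2 and 9.14% against 6.76% for Nostrill-3. Without IFN-γ, 4.6% against 1.33% of genes were lower for any match of Nostrill-2 and 3.64% against 1.67% for Nostrill-3. Seeds of the passenger strands had fewer genes called lower with a match than without, at 4.77% to 6.19% against 6.97% to 7.45% with IFN-γ. Genes with a passenger match had longer 3′ UTRs (medians of 2242 to 2847 nt against 926 to 1080 nt). Passenger matches were not compared within bins of 3′ UTR length. Genes with a Nostrill-1 match had longer 3′ UTRs (median 2541 nt against 1075 nt). Among genes with the shortest 3′ UTRs of 3 equal bins, 23.8% of 80 genes with the match were lower and 10.3% of the others. In the middle bin these were 15.2% and 5.23%, and in the bin with the longest 3′ UTRs 8.75% and 3.15%. The share of genes called lower was larger with a match than without in each bin for Nostrill-2 (13.3% and 10.4%, 8.81% and 5.5%, 5.91% and 3.21%) and for Nostrill-3 (19.1% and 10.4%, 7.78% and 5.75%, 4.74% and 3.94%). Median GC content was 46% with the Nostrill-1 match and 50.7% without.

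Matches in named genes are printed as 19 bases of the mRNA strand (GENCODE transcripts, GRCm38), to be read beside the Nostrill-1 guide, with the bases opposite its seed in capitals. Of the 12 genes with the largest fall in both fits, 6 hold the match, as does Gm20604, which overlaps other genes in the annotation.

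Mlycd: ttgttctgtaaGCATTAAa

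Wwc1: caaaaaaaccaGCATTAAa

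Apol10b: tttttttttaaGCATTAAt

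Fgf7: tttaaaagactGCATTAAa

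Atg3: tatatgtttatGCATTAAa

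Arvcf: actgacaaaatGCATTAAa

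Gm20604: tgttagcacagGCATTAAa

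Ifngr2: aggggttggggGCATTAAg

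The sites lie at chr8:119411053-119411071 (plus strand, Mlycd), chr11:35838925-35838943 (minus, Wwc1, 1 of 2 sites), chr15:77584895-77584913 (minus, Apol10b), chr2:126089735-126089753 (plus, Fgf7, 1 of 2 sites), chr16:45187856-45187874 (plus, Atg3), chr16:18406269-18406287 (plus, Arvcf), chr12:102742834-102742852 (minus, Gm20604) and chr16:91564520-91564538 (plus, Ifngr2). Ifngr2 is the only higher gene named for its size with this match. Its match and that of Apol10b are not followed by an A. Of the genes named for the size of their change, 7 of 19 lower and 1 of 20 higher genes with a 3′ UTR held it. Among list members described further on, Mcm2, Uqcr11 and Fosl2 also held it. Gsr and Kmt5a, which fell in both states, held it too. Of genes falling in both states further on, Dnajc19 and Pkia held a Nostrill-2 match and Ankrd1 held none. In the printed sites, between 9 and 13 of the 19 bases, seed match included, were the same as in the sense strand of the siRNA. None of the printed sites was thus a full match. Mns1 (matches to Nostrill-2 and Nostrill-3) and Zrsr2 (Nostrill-3) held other matches. Safb, Uaca and Syt13 held none, and Gm12666 has no 3′ UTR.

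**Figure D3:**
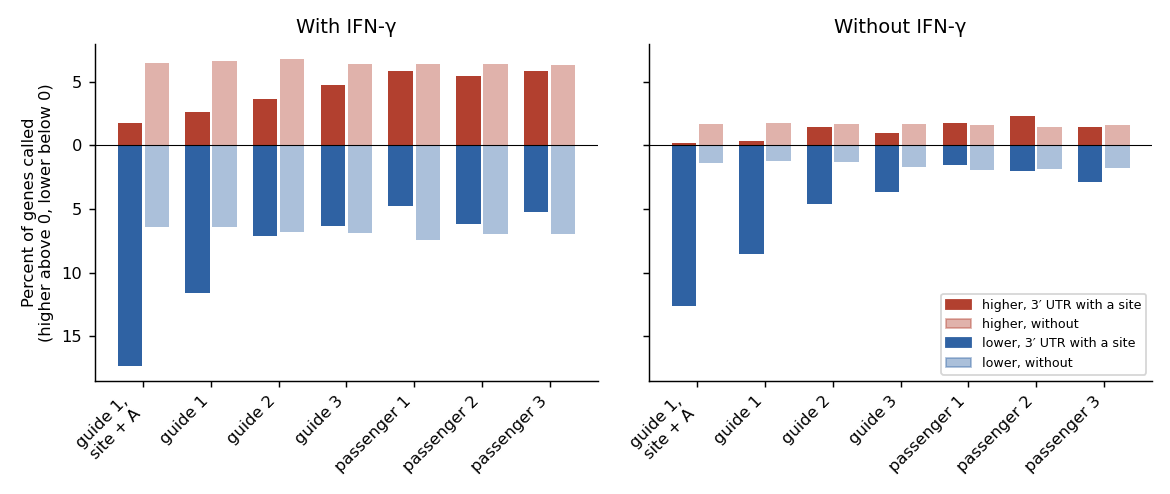
Percent of genes called higher (above 0) and lower (below 0) with the length trend removed, for genes whose 3′ UTR holds (dark bars) or lacks (pale bars) a 7-base match to the seed of each guide or passenger strand of the 3 siRNAs, with IFN-γ (left) and without (right). The match of guide 1 followed by A stands out with 17.3% of 462 genes lower with IFN-γ and 12.6% without. Genes with a passenger match had longer 3′ UTRs than those without. For the passenger strands with IFN-γ, the share of genes called lower was smaller with a match than without. Without IFN-γ this share was larger with a match for those of Nostrill-2 (1.99% against 1.83%) and Nostrill-3 (2.85% against 1.78%).

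A further 1488 genes were called only with the length trend removed, and 1463 of them had no overlap and an average log2 CPM above 1. The 10 with the largest rise were Galnt7, Ccl5, Gm39701, Ifi205, Nop10, Gm6712, Mipol1, Ssc5d, Hacd1 and Nr4a2, from 1.0 (Galnt7) to 0.80 (Nr4a2) on the log2 scale. Nop10, a component of H/ACA ribonucleoproteins and telomerase, was at 58.4, 48.9 and 52.6 length-adjusted CPM in control cells and at 97.9, 94.9 and 97.9 after siR_Nostrill (0.86 ± 0.10, adjusted p = 4.1e-04), and before correction at 56.6, 68.2 and 42.9 against 84.8, 87.5 and 103 CPM (adjusted p = 0.17). For this short gene the removal of the trend therefore changed the call and left the direction. Ifi205, of the interferon-inducible p200 family, was at 5.04, 6.33 and 5.32 against 10.1, 9.69 and 11 length-adjusted CPM (0.88, adjusted p = 0.0040). Hacd1, a dehydratase of very long chain fatty acid synthesis, was at 13.9, 14.5 and 18 against 28.8, 27.3 and 24.8 (0.81, adjusted p = 0.0011). Ssc5d, a scavenger receptor protein, was at 4.39, 5.70 and 5.24 against 10.1, 8.50 and 8.22 (0.81). In each of these the groups did not overlap, which was a condition for naming them. Without 1 library the calls of Gm6712 (siR_Nostrill + IFN-γ replicate 1 or 2), Mipol1 (9 of 12 libraries) and Nr4a2 (replicates 1 or 2 of either IFN-γ group) were lost.

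The 10 with the largest fall were Fndc7, Gm44504, Ppp1r35, Apol11a, Gm20604, Tnnt2, Dnajc19, Pkia, Gm15921 and Dnajc17. Ppp1r35, a centriole protein, was at 31.8, 38.1 and 31.7 against 17.6, 16.3 and 19.5 length-adjusted CPM (-0.93 ± 0.11, adjusted p = 5.3e-04). Dnajc19, a co-chaperone of mitochondrial protein import, was at 34.2, 35.2 and 36.1 against 21.2, 18.8 and 19.4 (-0.83 ± 0.08, adjusted p = 1.8e-04), and it fell by 0.61 without IFN-γ too (adjusted p = 0.0013). Tnnt2, the cardiac form of troponin T, was at 28.1, 38.6 and 31.7 against 16.0, 18.7 and 20.9 (-0.83, adjusted p = 0.0053) and differed by 0.03 without IFN-γ (adjusted p = 0.93). Fndc7 was uneven among replicates, at 17.2, 8.60 and 8.23 against 0.726, 2.97 and 2.87, and its log2 difference of -2.38 had an SE of 0.49. Apol11a, of the same family as Apol10b, was at 11.1, 15.3 and 10.2 against 4.35, 6.74 and 8.42 (-0.91, adjusted p = 0.013). Gm44504, Gm20604, Dnajc19 and Dnajc17 overlap other genes in the annotation, and Gm15921 is a pseudogene within Rabgef1. Without 1 library, calls were lost for Apol11a (siR_Ctrl + IFN-γ replicate 2 or siR_Nostrill + IFN-γ replicate 1) and Gm15921 (5 of 12 libraries). At least a 2-fold difference was reached by 10 called genes in all, of which Ugt1a6b was the only one that rose (Galnt7 was just under that size), by 3.85 ± 0.96 on the log2 scale (adjusted p = 0.020). It shares exons with other Ugt1a genes, and it is named here after its value was seen, outside the rule for named genes.

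Nostrill lies on the plus strand of chromosome 8 at 57487963 to 57510262 (RefSeq, GRCm38). Protein-coding genes within 500 kb of it were examined since a noncoding RNA can act on genes near its own. Sap30, a subunit of the Sin3 histone deacetylase complex, is transcribed from the opposite strand, and 102 bases separate its start from that of Nostrill in RefSeq. In GENCODE, whose transcript the siRNA positions above refer to, Nostrill starts at 57488054 and the gap is 193 bases. It was at 64.4, 68.2 and 75.5 length-adjusted CPM in siR_Ctrl + IFN-γ cells and at 43.7, 48.4 and 52 in siR_Nostrill + IFN-γ cells. All siRNA-treated libraries were below all controls, with a log2 difference of -0.53 ± 0.08 (adjusted p = 0.0023) that was -0.64 ± 0.17 without correction (adjusted p = 0.12). Without IFN-γ it was at 62.3, 58.0 and 55.5 against 50, 57.9 and 53.8, with overlapping groups and a log2 difference of -0.12 (adjusted p = 0.46). For the difference between these effects p was 0.0040 before and 0.15 after adjustment. The 3′ UTR of Sap30 holds no match to a guide seed.

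The region between the starts is printed because both genes start at its ends. It is given as the promoter window of Sap30 (RefSeq, GRCm38.p6, chr8:57487811-57488110, minus strand, 5′ to 3′), with the 102 bases between the RefSeq starts in capitals. Its GC content was 59.3%.

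Sap30 promoter: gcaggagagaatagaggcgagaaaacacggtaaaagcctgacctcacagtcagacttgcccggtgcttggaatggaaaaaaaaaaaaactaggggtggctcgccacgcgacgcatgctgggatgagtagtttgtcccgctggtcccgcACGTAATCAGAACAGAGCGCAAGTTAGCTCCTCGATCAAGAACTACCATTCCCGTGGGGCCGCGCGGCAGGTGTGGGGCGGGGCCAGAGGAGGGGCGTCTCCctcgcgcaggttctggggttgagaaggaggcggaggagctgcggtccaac

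On the other side of Nostrill, Galnt7, an enzyme that starts or extends O-linked glycans, lies 13.6 kb away. It was at 24.2, 18.6 and 25.6 length-adjusted CPM in control and at 48, 48.2 and 41 in siRNA-treated cells (1.0 ± 0.13, adjusted p = 8.1e-04, and 1.04 ± 0.22, adjusted p = 0.065, without correction). Without IFN-γ it was at 33.7, 30.6 and 26.8 against 37.7, 37.1 and 48.3 (0.44, adjusted p = 0.084). It was the largest rise among genes called only after correction without overlap and with an average log2 CPM over 1, and met the rule for named genes by its size as well as by its place. Hmgb2, a chromatin protein 1.58 kb from Nostrill, was at 730, 861 and 658 against 539, 599 and 590. Its groups did not overlap, and its log2 difference of -0.38 did not pass (adjusted p = 0.066), but passed with the GC trend also removed (adjusted p = 0.044). Hand2, a transcription factor 163 kb away, differed by -0.06 (adjusted p = 0.68), with overlapping groups. Scrg1 had at most 1 read in any library and was not tested, and Galntl6 was not analysed here. Of the 4 neighbours tested 1 was thus called lower and 1 higher, where 12.9% of all genes were called, and whether the siRNA pool acts on them through Nostrill was not tested.

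**Figure D4:**
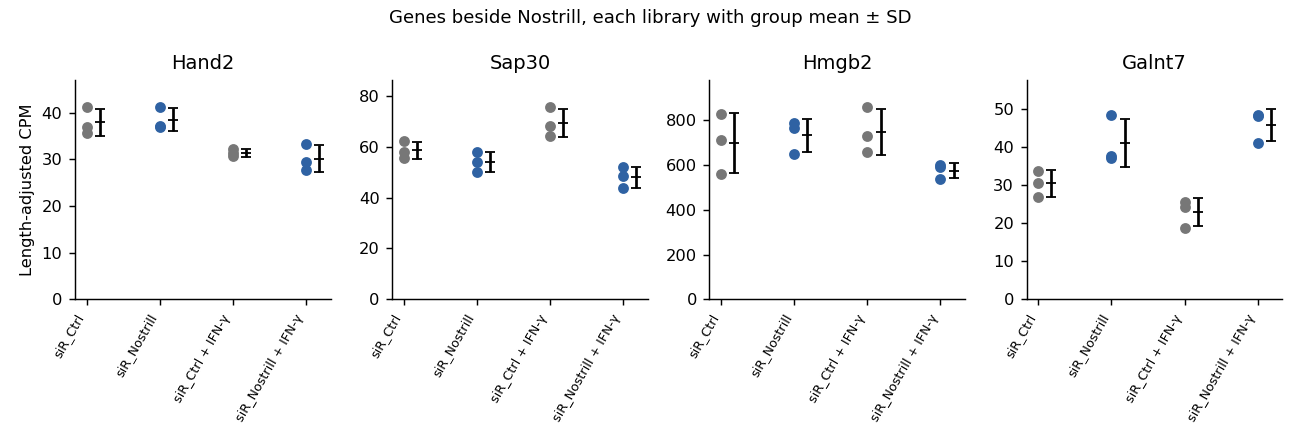
Length-adjusted CPM of Hand2, Sap30, Hmgb2 and Galnt7 (vertical axes, each from 0) in the 4 groups; points are libraries and bars show the mean ± SD of 3. In Sap30 and Galnt7 the siR_Nostrill + IFN-γ points lie apart from those of siR_Ctrl + IFN-γ, below at 43.7 to 52 and above at 41 to 48.2 respectively.

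Of 26 tested genes of the IFN-γ receptor, JAK-STAT and IRF list, 1 was called higher and 3 lower after removal of the trend (15.4%, beside 12.9% of all genes), and the median log2 difference was 0.00, as over all genes. Ifngr2 is described above, while Ifngr1, Jak1 and Jak2 differed by -0.11, -0.09 and -0.09 and did not pass. Ptpn6, a phosphatase that dampens cytokine signalling, fell from 22.5, 24.3 and 24.6 to 15.2, 16.6 and 16.5 (-0.56, adjusted p = 0.0020). Socs3, a feedback inhibitor, fell from 212, 242 and 245 to 183, 192 and 194 (-0.30, adjusted p = 0.014, lost without siR_Nostrill + IFN-γ replicate 1). A receptor chain was thus higher, and these 2 genes of feedback were lower.

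GBP and IRG genes, which are among the main targets of IFN-γ, had 0 calls of 20 in either fit by edgeR's quasi-likelihood test, while 2 (Irgm1 and Ifi47) had an unadjusted p under 0.05 and DESeq2 called 1 with the length trend removed (1 and 0 without correction), with a median of -0.03 (0.02 without correction) and a range from -0.19 to 0.64. Igtp, an IRG that the study followed, was at 957, 997 and 911 length-adjusted CPM against 810, 849 and 849, where the groups did not overlap, and its log2 difference of -0.19 ± 0.12 did not pass (adjusted p = 0.30). Irgm1 was at 538, 474 and 528 against 609, 590 and 557 (0.19, adjusted p = 0.081). Of 22 MHC class I presentation genes 3 were called (13.6%, near the 12.9% of all genes), with a median of 0.02 (-0.05 without correction). B2m, the light chain of MHC class I, rose from 316, 257 and 357 to 422, 442 and 462 (0.51, adjusted p = 0.016), and Erap1, a peptide-trimming enzyme, rose from 58.8, 55.2 and 56.8 to 72.6, 70.5 and 62.8 (0.27, adjusted p = 0.022), a call that ended at 0.22 with the GC trend also removed. Psmb8, a subunit of the immunoproteasome, fell from 94.4, 95.4 and 81.5 to 69.2, 71.2 and 78.0 (-0.31, adjusted p = 0.038). Each of these calls was lost without siR_Nostrill + IFN-γ replicate 2, among others.

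Of the other genes that the study followed, Nos2, the inducible nitric oxide synthase, was at 257, 239 and 319 length-adjusted CPM against 215, 208 and 208 (-0.37 ± 0.13, adjusted p = 0.068). Gadd45g, a stress sensor that acts upstream of p38 and JNK, fell from 38.9, 42.3 and 37.1 to 27.1, 25.1 and 27.7 (-0.57 ± 0.09, adjusted p = 0.0024, and 0.16 without correction, where the log2 difference was -0.71). Both had no overlap between groups. The study chose these genes with these cells in hand, so their direction is not independent evidence.

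Antiviral genes that respond mainly to type I interferon had calls in 1 direction. Of 36 tested, 6 were called higher and 0 lower (16.7% called, beside 12.9% of all genes, of which 6.18% were higher), 34 had a positive difference and the median was 0.23 (0.20 without correction, where edgeR called 0, 6 had an unadjusted p under 0.05 and DESeq2 called 2). Ifit1, which binds viral RNA, rose from 41.4, 43.8 and 44.4 to 67.7, 74.9 and 79.5 length-adjusted CPM (0.78 ± 0.11, adjusted p = 0.0015). Samd9l, Ddx58 (the RNA sensor RIG-I) and Ifitm3 rose by 0.50, 0.32 and 0.42 on the log2 scale, and Oasl2 and Isg15 were called too. Without IFN-γ, where 3.43% of all genes were called (191 of 11900 higher), 12 of the 36 were higher and 0 lower, with a median of 0.59. Oasl2 differed by 1.09 there and by 0.43 with IFN-γ (unadjusted p of the difference 0.0016), and Isg15 by 0.88 and 0.36 (0.0031), neither with an adjusted p under 0.14. The groups without IFN-γ share no library with those given IFN-γ, although all entered the same fit, and the direction was the same.

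Chemokines and cytokines likewise had calls in 1 direction with IFN-γ: of 20 tested, 5 were called higher and 0 lower (25.0%, beside 12.9% of all genes), with a median of 0.21 (0.18 without correction, where Tnfsf9 was the only call). Without IFN-γ, with the length trend removed, 2 of the list were higher and 1 lower, with a median of 0.05. Ccl5, which attracts T cells, rose from 35.4, 34.4 and 39.8 to 78.6, 70.1 and 65.3 length-adjusted CPM (0.97 ± 0.13, adjusted p = 7.8e-04), and without IFN-γ by 0.80 (adjusted p = 0.0048). Before correction it was at 34.1, 51.2 and 31.4 against 66.6, 63.9 and 69.5 CPM (adjusted p = 0.13). Cxcl10, induced by IFN-γ in many cell types, rose from 685, 548 and 694 to 918, 935 and 894 (0.51, adjusted p = 0.018), a call lost without siR_Ctrl + IFN-γ replicate 2 or siR_Nostrill + IFN-γ replicate 1 or 2. The monocyte chemokine Ccl7 rose from 163, 115 and 130 to 214, 194 and 180 (0.53, adjusted p = 0.0096), and Ccl2 by 0.38 (adjusted p = 0.043). Of the immune markers, Ptprc reached 0.01 FPKM at most, while Cd14 averaged 16 FPKM in control and 17.5 in siRNA-treated cells given IFN-γ, and Cd68 averaged 1.54 and 2.0 FPKM. Their part in these results was not tested.

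Of 40 autophagy genes 1 was higher and 3 lower (10% called, beside 12.9% of all genes), with a median of -0.01. The falls were Atg3, Becn1 and Atg101, which act in LC3 lipidation, in the PI3-kinase complex and in the initiating kinase complex. Becn1 was at 86.4, 86.3 and 87.0 length-adjusted CPM against 68.8, 70.1 and 69.4 (-0.32 ± 0.06, adjusted p = 0.0038), and Lamp2, a lysosomal membrane protein, rose from 316, 256 and 330 to 419, 395 and 383 (0.41, adjusted p = 0.032). The call of Atg101 was lost without siR_Ctrl + IFN-γ replicate 2 or siR_Nostrill + IFN-γ replicate 2, and that of Lamp2 without any of 5 libraries given IFN-γ.

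Signalling lists went both ways. Of 36 MAPK feedback and immediate-early genes Egr3 and Egr1 were higher and Jun, Jund and Fosl2 lower (13.9% called, near the 12.9% of all genes), with a median of 0.07. The calls of Egr3 and Fosl2 were each lost without any of 5 libraries given IFN-γ, and that of Jund without siR_Nostrill + IFN-γ replicate 2. Jun, a subunit of AP-1, fell from 178, 193 and 189 to 138, 146 and 144 length-adjusted CPM (-0.38 ± 0.06, adjusted p = 0.0018), and it differed by -0.04 without IFN-γ (adjusted p = 0.73). Of 30 NF-κB and TLR genes 2 were higher (Ticam1 and Tlr3, an adaptor and a receptor for double-stranded RNA) and 4 lower (Traf3, Ikbkb, Birc3 and Tnip1), 20% called, with a median of 0.01. The call of Tlr3 was lost without any of 5 libraries given IFN-γ, and that of Ticam1 without siR_Nostrill + IFN-γ replicate 1. Traf3 was at 48.8, 47.6 and 44.7 against 37.5, 37.2 and 36.8 (-0.34, adjusted p = 0.0066). Of 31 Gadd45 and p53 genes Ei24 and Ccng1 were higher, and Gadd45b, Gadd45g and Phlda3 lower (16.1% called). Gadd45b fell from 83.3, 83.4 and 83.2 to 56.2, 62.5 and 61.5 (-0.47, adjusted p = 0.0012). Members of this list thus moved in both directions.

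Of 28 Hippo pathway genes 6 fell (Wwc1, Ankrd1, Wwc2, Amotl2, Ccn2 and Ccn1) and 1 rose (Stk4), 25.0% called beside 12.9% of all genes, while the median of the list was 0.02. Ankrd1, Amotl2, Ccn1 and Ccn2 are targets of the effector Yap1, and Wwc1 and Wwc2 act upstream of it. Ankrd1 was at 56.3, 53.8 and 51.1 length-adjusted CPM against 41.0, 38.6 and 43.8 (-0.39, adjusted p = 0.0060) and fell by 0.53 without IFN-γ (adjusted p = 0.0016). Ccn1 and Ccn2 fell by 0.30 and 0.36 with IFN-γ and by 0.61 and 0.65 without. The call of Amotl2 was lost without siR_Nostrill + IFN-γ replicate 1 or 2. Without IFN-γ, where 3.43% of all genes were called (217 of 11900 lower), the list had 6 lower and 1 higher.

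Of 40 mitosis and replication genes 6 fell (Mcm2, Mki67, Cdc20, Top2a, Kif23 and Tpx2) and 0 rose (15% called, beside 12.9% of all genes), with a median of -0.08. Mcm2 was at 407, 390 and 400 length-adjusted CPM against 296, 278 and 279 (-0.49 ± 0.05, adjusted p = 2.8e-04), and Mki67, a marker of cycling cells, at 525, 618 and 466 against 343, 381 and 354 (-0.58, adjusted p = 0.0049). Of 26 genes of the unfolded protein response 6 fell and 0 rose (23.1%), at a median of 0.01. Edem1, Creld2, Ddit3 and Hsp90b1 fell by 0.43, 0.33, 0.49 and 0.26 on the log2 scale. With the GC trend also removed 4 of the list were lower and 1 higher. The calls of Top2a and Hsp90b1 were lost without replicate 1 or 2 of either group given IFN-γ, and that of Ddit3 without siR_Nostrill + IFN-γ replicate 1.

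The fits differed most for lists of short transcripts. For 77 cytosolic ribosomal proteins (median length 494 nt) the median went from -0.30 to -0.15 with removal of the trend, and the calls from 0 (2 at an unadjusted p under 0.05 and 0 by DESeq2) to 2 higher and 15 lower (22.1%, beside 12.9% of all genes). Rps23 fell from 860, 941 and 947 to 592, 600 and 529 length-adjusted CPM (-0.68 ± 0.11, adjusted p = 0.0021), while Rps27 rose from 313, 291 and 325 to 432, 450 and 425 (0.49 ± 0.08, adjusted p = 0.0021). For 75 respiratory chain subunits (483 nt) the median went from -0.17 to -0.01, with 9 higher and 12 lower (28% called). Atp5l rose from 115, 110 and 121 to 183, 170 and 167 (0.59, adjusted p = 0.0010), and Uqcr11 fell from 102, 107 and 91.7 to 64.5, 65.9 and 68.5 (-0.60, adjusted p = 5.5e-04) and by 0.56 without IFN-γ. Ribosomal protein genes have many processed pseudogenes whose reads can be shared.

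Of 39 genes of extracellular matrix and adhesion 6 fell and 1 rose (17.9% called), with a median of -0.16. Of 38 genes listed for keratins and epithelial junctions only 14 were tested, as the others were absent or removed by the filter on low counts. Of these 14 tested genes 5 fell and 1 rose (42.9% called, beside 12.9% of all genes), with a median of -0.15. Lamb2, a laminin chain, fell from 135, 163 and 125 to 105, 97.7 and 103 length-adjusted CPM (-0.47, adjusted p = 0.010, lost without siR_Nostrill + IFN-γ replicate 2). Of the junction genes, Cgn, Pkp2, Pkp3 and Ctnna1 were among those that fell, with Cgn lost without siR_Nostrill + IFN-γ replicate 1, and Pkp2 and Pkp3 without replicate 1 or 2 of that group or siR_Ctrl + IFN-γ replicate 2. The fibroblast markers, measured beside these, had 0 of 7 tested called by edgeR, with 3 (the collagens Col1a1, Col1a2 and Col3a1) at an unadjusted p under 0.05 and 1 called by DESeq2. Of 20 genes of metallothioneins and zinc handling 2 were called (10%, below the share of all genes). Mt1, which binds zinc, rose from 453, 434 and 498 to 607, 615 and 672 (0.45, adjusted p = 0.015), and Mt3 fell from 0.957, 0.980 and 0.995 to 0.189, 0.542 and 0.314 (-1.47, adjusted p = 0.014), calls that were lost without siR_Nostrill + IFN-γ replicate 3, among others. Of 19 RNA interference genes 1 was called (5.26%, also below it, Drosha, -0.20, adjusted p = 0.047, lost without any of 9 libraries). Of 28 genes of cholesterol synthesis and uptake Dhcr7 and Sc5d rose, by 0.47 and 0.30 (7.14% called, below the 12.9% of all genes), and the median was 0.02. The call of Sc5d was lost without siR_Ctrl + IFN-γ replicate 1 or siR_Nostrill + IFN-γ replicate 2. Without IFN-γ, where 3.43% of all genes were called, 13 of the 28 rose and 0 fell, with a median of 0.42.

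Without correction few list members were called. Those were Ifngr2, Tnfsf9, Ei24 and Ccng1 higher and Atg3, Wwc1 and Mcm2 lower. The other lists had 0 calls by edgeR, with between 0 and 13 members each at an unadjusted p under 0.05 and between 0 and 4 called by DESeq2. Their uncorrected medians were 0.05 for MAPK feedback, 0.02 for NF-κB, 0.00 for the unfolded protein response, 0.05 for metallothioneins and for cholesterol synthesis, 0.03 for RNA interference, -0.11 for extracellular matrix and -0.14 for junctions. For the lists with a call they were 0.00 for autophagy, -0.07 for Gadd45 and p53, 0.03 for Hippo and -0.08 for mitosis.

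**Figure D5:**
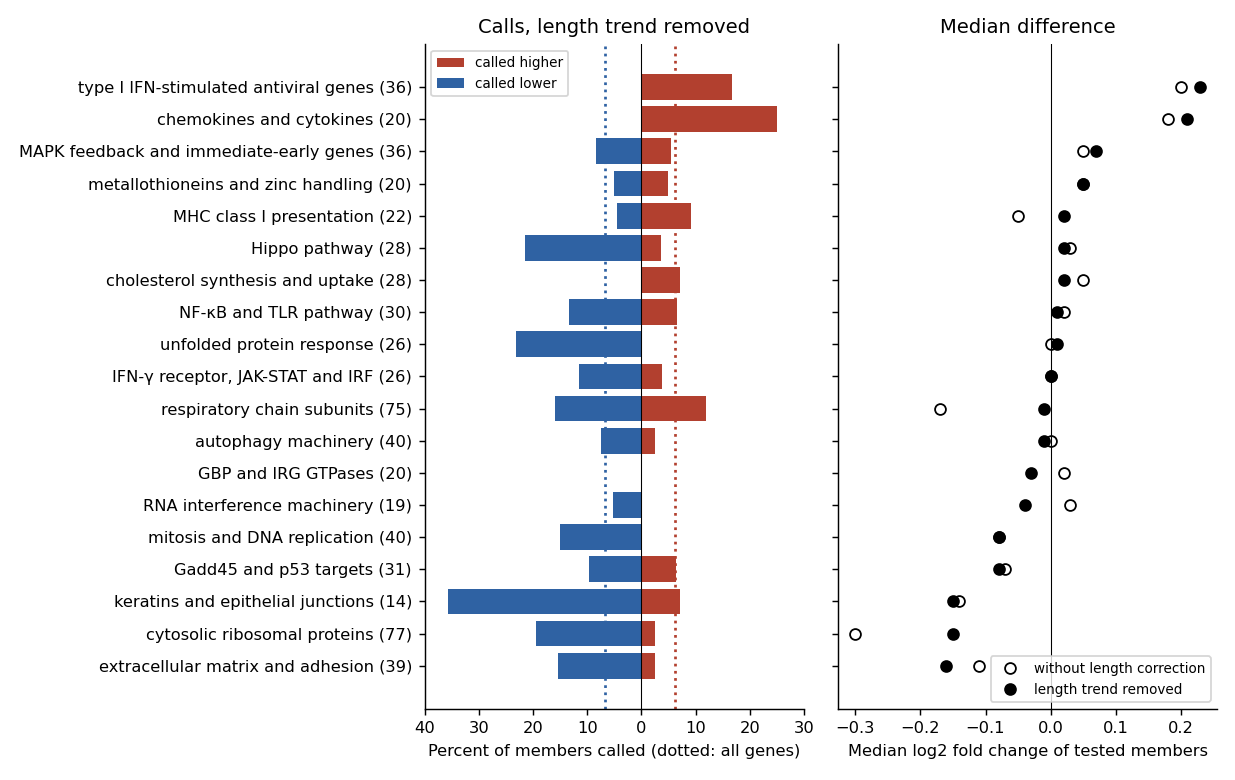
Left, percent of the tested members of each list (numbers in brackets) called higher (red, to the right) or lower (blue, to the left) with the length trend removed, with dotted lines at the 6.18% and 6.75% of all genes; right, the median log2 difference without (open) and with (filled) removal of the trend. Antiviral genes and chemokines lie highest, at medians of 0.23 and 0.21, and the medians of ribosomal and respiratory chain genes move most between the fits.

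The effect of the siRNA pool with IFN-γ was set beside its effect without, where the length trend between the groups ran in the opposite direction. With the trend removed 408 genes (3.43%) were called without IFN-γ, 191 higher and 217 lower. Without correction these calls numbered 26, 9 higher and 17 lower. The 408 became 171 and 251 without siR_Ctrl replicate 1 or 2, and 264 when siR_Nostrill + IFN-γ replicate 2 was left out. Leaving out siR_Nostrill replicate 1, 2 or 3 gave 226, 147 and 264 calls, while each of the other 6 libraries moved the count by less than 1.5 times. The shares that follow rest on the 408. There were 180 genes called in both states, which is 11.7% of the calls with IFN-γ and 44.1% of those without, and all 180 had the same direction. Of the 1539 genes called with IFN-γ, 1139 (74.0%) had the same sign without it. Genes called higher had a median log2 difference of 0.34 with IFN-γ and of 0.11 without, and genes called lower of -0.34 and -0.08. The values with IFN-γ chose these genes, so that a smaller value without it is partly set by that choice. The difference of the effects itself was called for 0 genes by edgeR's quasi-likelihood test in either fit, with a smallest adjusted p of 0.124 (0.43 without correction). An unadjusted p under 0.05 was reached by 2267 genes (1277 without correction), and DESeq2 called 330 with the length trend removed, 103 of them with a positive difference, and 0 without correction. With replicate number as block, edgeR called 248 with the length trend removed, 95 of them with a positive difference, and 0 without correction. Among named genes, Mmachc (0.72 with IFN-γ and -0.37 without, unadjusted p = 1.3e-04), Safb (-0.75 and -0.10, 5.8e-04), Nop10 (0.86 and 0.17, 2.3e-04), Ppp1r35 (-0.93 and -0.11, 1.3e-04) and Rps23 (-0.68 and 0.08, 1.9e-04) had some of the smallest values. Pkia, an inhibitor of protein kinase A, and Fgf7 fell in both states, by 0.79 and 1.16 and by 0.79 and 1.0 on the log2 scale.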

How the data were processed

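RNA-seq was performed in 4 groups of 3 libraries. For each library the authors deposited estimated counts per gene, which need not be whole numbers and are not normalized. The authors also deposited FPKM and TPM values for each gene. Per the study's methods, SOAPnuke removed low-quality reads, HISAT2 and Bowtie2 did the alignment, and the build was GRCm38.p6. The sources used here give no counting tool. FPKM gave levels and, with the counts, effective gene length, and TPM was not tested. The authors' biological triplicates are not further described, so p-values measure the spread between these libraries only.

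Counts were rounded and tested in edgeR 4.0.16 (R 4.3.3) with TMM factors, filterByExpr, the quasi-likelihood test and Benjamini-Hochberg adjustment over 11900 of 15002 genes at 0.05. All 12 libraries entered 1 fit without a covariate. SE is the log2 difference over the root of F. The length trend was removed as an offset per library, a lowess (span 0.3) of the deviation of log2 CPM from the mean of all libraries on log2 effective length. It assumes that no length-related difference between groups is to be kept. Libraries of 1 group differed by more than counting noise (chi-square per degree of freedom 7.54 or more), so each counted as 1 replicate.

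Named genes were, for both fits and for the corrected fit only, the 12 and 10 largest changes each way with no overlap and an average log2 CPM over 1, up to 4 genes of smallest p per list, the genes the study followed, and neighbours of Nostrill within 500 kb. Members, lists and the length correction were chosen with earlier results of these data known. Lists were described by counts and medians without a set test. Coordinates and the promoter came from RefSeq (14958 genes matched), 3′ UTRs from GENCODE vM21, and siRNAs from the study's supplement. Alternatives were DESeq2 1.42.0, DESeq2 size factors, limma 3.58.1 on log2(FPKM + 1) where the mean FPKM was 0.5 or more, a mean of at least 5 CPM, no filter, a fit of the compared groups alone, replicate number as block, lowess span 0.7, a spline of length with 4 degrees of freedom, and each library left out. Removal of length and GC together, the block within the groups compared, and the count of calls with limma were added after seeing the data. Other genes, such as Safb2, Gsr, Kmt5a, Ugt1a6b and list members beyond 4, were named after their values were seen. Some genes are not reported here.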

Additional observations from a re-analysis of the deposited data

How the results depend on the processing

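Without correction, the 51 calls with IFN-γ became 596 with DESeq2, 105 with a mean of at least 5 CPM, 30 without a filter, and 98 with limma on log2(FPKM + 1), of which 67 were higher, 68.4% in place of 43.1%. They became 0 with only the groups compared, by edgeR (1563 genes at an unadjusted p under 0.05), and ranged from 0 to 72 with 1 library left out. With the length trend removed, the 1539 calls ranged from 623 to 1805 with 1 library left out, and 1430 of them were kept among 1677 calls when GC was removed too. DESeq2 gave 1824, only the groups compared 1142, no filter 1282 and a spline 1482. Without IFN-γ, 26 calls without correction became 265 with DESeq2, 0 with only the groups compared (1143 unadjusted) and 0 to 37 with 1 library left out. The 408 calls with correction became 693 with DESeq2, 249 with only the groups compared and 147 to 580 with 1 library left out. The interaction had 330 calls with DESeq2 after correction, and with 1 library left out 0 to 3 after correction and 0 to 0 before.

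Whether the same replicate numbers mark pairs is not stated by the labels or the study. Deviations of same-numbered libraries of both IFN-γ groups correlated at 0.37, -0.15 and -0.62 before correction and at 0.28, -0.03 and -0.31 after. These values rest on few libraries and cannot decide it. With the replicate block the calls with IFN-γ were 32 before and 1896 after correction, without IFN-γ 18 and 558, and the interaction had 248 after correction. With only the groups compared and the replicate block, the calls were 0 before (944 genes at an unadjusted p under 0.05) and 754 after correction.

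All 106 named genes tested kept their sign with each library left out. Of 78 named genes other than the 24, called after correction, 44 were called in all 12 of these settings, and siR_Nostrill + IFN-γ replicates 1 and 2 cost most calls (27 and 26). Without correction 77 of them did not pass, and with limma on FPKM 72 named genes did not. With GC also removed, 100 of the 102 named genes called after correction kept their call. The filter on low counts left 11900 of 15002 genes, and 14993 were tested without it.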
